A study of Homo sapiens and Mus musculus with 57 samples.

Results

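ISGF3 is the transcription factor complex that carries the signal of type I and type III interferons from the receptor to the genome, and the interferon regulatory factors (IRFs) are its partners, its inducers and its products. The 8 genes described here are STAT2 and IRF9 of ISGF3 together with IRF1, IRF2, IRF3, IRF5, IRF7 and IRF8. They were chosen by name and found as 8 of the 30373 rows of the human tables, by gene symbol. Interferon receptors activate the kinases JAK1 and TYK2, which phosphorylate STAT proteins. STAT2 and a further STAT protein then bind IRF9, and the complex reads interferon-stimulated response elements in the promoters of antiviral genes. IRF3, IRF5 and IRF7 are activated by sensors of microbial nucleic acids and induce the interferon genes themselves, IRF1 and IRF2 read the same kind of element, and IRF8 shapes monocytes and dendritic cells. Monocytes use these factors to answer viruses and bacteria, and carcinoma cells keep parts of the same system.

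The libraries came from 4 human tumour lines kept for 16 h with an inhibitor of the SUMO-activating enzyme or with the vehicle DMSO. SUMO is a small protein that is conjugated to other proteins, many of them regulators of transcription, and the activating enzyme is the first step. THP-1 is a monocytic leukaemia line, in which 1 uM TAK-981 was set against DMSO. The colorectal carcinoma lines HCT116 and Colo205 and the breast carcinoma line MDA-MB-231 received 1 uM TAK-981, 1 uM ML-792 (a second inhibitor of the same enzyme) or DMSO. Each of the 11 groups held 3 libraries, 33 in all. The labels describe wells seeded in triplets, THP-1 in larger wells than the carcinoma lines, and name no separate passages or days. The p-values below therefore rest on a spread between libraries of a group that may be technical. No interferon was added in any group, as far as the labels say.

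Libraries held 17336343 to 25807847 estimated counts and 16770 to 18131 detected genes. Of 12 monocytic markers 11 averaged at least 1 FPKM (fragments per kilobase of gene, scaled to library depth) in DMSO-treated THP-1, against 1, 2 and 1 in HCT116, Colo205 and MDA-MB-231. Of 10 colorectal epithelial markers 9 reached that level in Colo205 and 5 in HCT116, where CDX1 and CEACAM5 were at 0. In MDA-MB-231 3 of them reached it and in THP-1 0. Of 8 markers of MDA-MB-231 7 reached it in that line, but so did 6 in HCT116, 5 in THP-1 and 3 in Colo205. Their summed FPKM was 2623 to 2785 in DMSO-treated MDA-MB-231 and 391.4 to 422.5 in DMSO-treated HCT116, the next highest line. Mitochondrial transcripts made up 15.5 ± 1.75% of the counts in TAK-981-treated THP-1 and 7.38 ± 0.215% in DMSO-treated THP-1 (SD, n = 3 each), and 3.89 to 8.15% on average in the other groups. Their part in the THP-1 results was not tested beyond a fit without these rows, in which all 7 called members of THP-1 kept their call and direction. In bulk samples, fewer cells of a kind and less RNA per cell cannot be told apart.

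The promoters of IRF9, IRF1 and IRF8 are printed because the results turn on these genes and because each window holds letters that STAT or IRF proteins are known to read. RefSeq promoter windows (GRCh38.p14, 250 bases before to 50 after the start) were at hand for 5 of the 8 members. The letters AANNGAAA are the consensus read by IRF proteins. The core of the response element of ISGF3 is GAAA, any 2 bases and GAAA again, and holds the IRF consensus within it. TTCNNNGAA is the palindromic site read by STAT dimers. Each was searched on both strands, and capitals mark every match to AANNGAAA or TTCNNNGAA.
IRF9, chr14:24161015-24161314, plus strand: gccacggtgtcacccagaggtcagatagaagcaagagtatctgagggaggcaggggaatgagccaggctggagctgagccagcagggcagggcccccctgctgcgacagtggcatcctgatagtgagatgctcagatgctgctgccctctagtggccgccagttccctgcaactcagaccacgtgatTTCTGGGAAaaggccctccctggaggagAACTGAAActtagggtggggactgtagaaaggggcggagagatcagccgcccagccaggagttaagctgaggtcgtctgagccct
IRF1, chr5:132490724-132491023, minus strand: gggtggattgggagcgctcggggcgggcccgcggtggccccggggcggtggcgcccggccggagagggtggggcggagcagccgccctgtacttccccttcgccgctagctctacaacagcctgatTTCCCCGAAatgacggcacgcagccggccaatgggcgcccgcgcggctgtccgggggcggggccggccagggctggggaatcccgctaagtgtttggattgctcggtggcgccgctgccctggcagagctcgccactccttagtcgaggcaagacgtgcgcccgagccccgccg
IRF8, chr16:85902580-85902879, plus strand: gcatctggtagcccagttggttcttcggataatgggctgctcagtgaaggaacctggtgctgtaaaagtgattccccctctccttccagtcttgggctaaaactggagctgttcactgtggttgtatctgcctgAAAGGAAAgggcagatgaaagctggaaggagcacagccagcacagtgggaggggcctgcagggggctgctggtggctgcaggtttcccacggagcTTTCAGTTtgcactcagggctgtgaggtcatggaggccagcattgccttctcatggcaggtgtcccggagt
The IRF9 window held TTCTGGGAA from 63 to 55 bases before the start and AACTGAAA from 35 to 28 bases before it. The IRF1 window held TTCCCCGAA from 124 to 116 bases before the start and no IRF consensus. The IRF8 window held AAAGGAAA from 116 to 109 bases before the start and, on the other strand, TTTCAGTT from 21 to 14 bases before it. The second IRF8 window, whose start lies further along the gene, held the same TTTCAGTT. STAT2 had no match to any of the motifs, and 1 of the 4 windows of IRF5 held an IRF consensus. The ISGF3 core was in none of these windows. Over all 35116 RefSeq windows of the same length, 22.8% held AANNGAAA, 3.57% held the ISGF3 core and 7.66% held TTCNNNGAA. These matches describe the letters only.

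IRF9 could not be measured by itself in these tables, and its values are therefore given together with those of its neighbour RNF31. RNF31 encodes the catalytic subunit of the complex that builds linear ubiquitin chains. The deposited estimated counts of IRF9 were fractions, but those of IRF9 and RNF31 added up to a whole number in all 33 libraries, with a largest distance of 2e-04. Of 4785 other rows with fractional counts RNF31 was the one row with this property at a tolerance of 0.01. IRF3 and BCL2L12, an atypical BCL2 family gene, formed a second such pair, with a largest distance of 3e-04. Counts were thus divided between the 2 genes of a pair by an estimate. In the GENCODE v29 annotation IRF9 lies just after RNF31 on the same strand, a further gene model on that strand overlaps both, and IRF3 and BCL2L12 overlap on opposite strands. The files' own annotation is not given in the sources used here. The other 6 members had whole counts and no partner.

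In THP-1 the sum of IRF9 and RNF31 rose with TAK-981. The 3 TAK-981 libraries held 2479, 2644 and 2628 summed counts and the 3 DMSO libraries 1318, 1311 and 1424, so the groups did not overlap. The log2 fold change was 0.73 ± 0.0740 (SE), adjusted p = 7.46e-07, from edgeR's quasi-likelihood test with Benjamini-Hochberg adjustment over all genes, which also gives the adjusted p-values that follow. Within that sum, IRF9 was assigned 340, 31.6 and 383 counts with TAK-981, against 12.4, 0 and 0 counts with DMSO. IRF9 by itself therefore took 1.20 to 14.6% of the pair with TAK-981 and at most 0.942% with DMSO. One TAK-981 library lay close to the DMSO libraries in this share and far from the other TAK-981 libraries. The fitted log2 fold change of IRF9 by itself was 5.71 ± 0.95 (SE), adjusted p = 9.83e-05, and that of RNF31 by itself 0.59 ± 0.0927 (SE), adjusted p = 5.94e-05. Leaving out each of the other 5 libraries in turn gave 5.10 to 6.23 for IRF9. No fold is given without DMSO replicate 4, since IRF9 was at 0 in the other DMSO libraries. The sum of the pair does not depend on how the counts were divided, whereas the value of IRF9 by itself does.

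**Figure D1:**
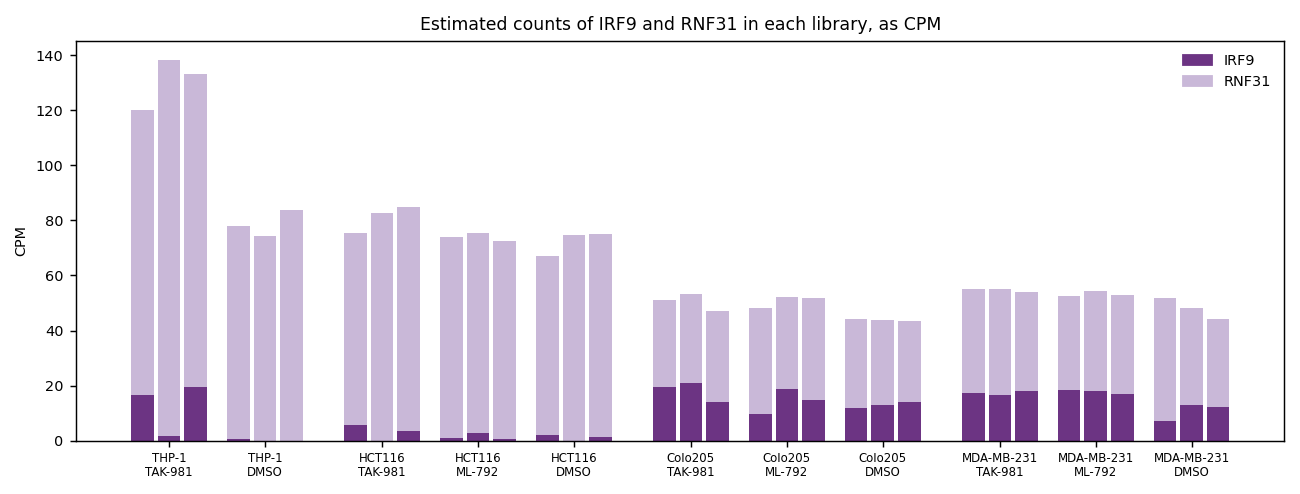
Each bar is 1 of the 33 libraries and gives CPM (counts scaled to the depth of the library), with RNF31 (light) stacked on IRF9 (dark) and replicates in numerical order within a group. The summed bars of TAK-981-treated THP-1 stand above those of DMSO-treated THP-1, while the dark part is small in THP-1 and HCT116 and differs among replicates of a group.

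STAT2, the other subunit that is particular to ISGF3, rose in THP-1 by a smaller amount. It had 76.1, 89.2 and 83.7 CPM in the TAK-981 libraries and 54.3, 52.2 and 58.7 CPM in the DMSO libraries. The lowest TAK-981 library was above the highest DMSO library, and the log2 fold change was 0.59 ± 0.0769 (SE), adjusted p = 9.41e-06. In all, 7 of the 8 members passed the test in THP-1, 5 higher and 2 lower, with IRF9 by itself counted among the higher. TAK-981 moved a large share of the THP-1 transcriptome, with 69.4% of 14526 genes called, 35.5% higher and 33.9% lower, so a call by itself does not set the members apart. On the deposited FPKM values the call split was 6676 higher and 3330 lower, against 5150 and 4924 on counts, and the median log2 change of all genes was 0.239. On that scale the members kept their directions, with 0.15 for IRF3, -0.34 for IRF5 and -1.49 for IRF8, so that IRF3 lay below the median of all genes there.

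IRF1, which is induced by interferon-γ and opens many genes of antigen presentation, had 67.5, 66.8 and 65.4 CPM with TAK-981 and 18.3, 20.9 and 18.6 CPM with DMSO. The replicates of each group lay close together and far from the other group. Its log2 fold change was 1.79 ± 0.0767 (SE), adjusted p = 1.87e-10. IRF2, which binds the same elements and can oppose IRF1, rose as well, with 35.5, 31.6 and 32.8 CPM in TAK-981 libraries and 18.3, 18.3 and 15.3 CPM in DMSO libraries (0.95 ± 0.0919 (SE), adjusted p = 5.06e-07). The counts of IRF1 were steadier than its deposited FPKM values, which were 23.1, 37.2 and 21.6 with TAK-981 and 5.12, 5.77 and 5.31 with DMSO. One TAK-981 library was high in FPKM and not in counts.

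Of the factors that induce interferon genes, IRF7 rose, IRF5 fell and IRF3 by itself did not pass the test. IRF7, itself an interferon-stimulated gene that amplifies the response, had 32.8, 44.9 and 39.9 CPM with TAK-981 and 6.51, 6.41 and 5.82 CPM with DMSO. All TAK-981 libraries were several times above all DMSO libraries (2.65 ± 0.12 (SE), adjusted p = 4.05e-10). IRF5, which acts downstream of Toll-like receptors on inflammatory cytokine genes, had 110, 115 and 115 CPM with TAK-981 and 162, 165 and 182 CPM with DMSO, without overlap (-0.58 ± 0.0665 (SE), adjusted p = 2.58e-06). IRF3, the constitutive factor that acts first on the interferon-β gene, had 116, 131 and 123 CPM with TAK-981 and 120, 122 and 126 CPM with DMSO, and these ranges overlapped. By itself its log2 fold change was 0.0054 with a 95% interval of -0.14 to 0.15 (adjusted p = 0.948), and summed with BCL2L12 the change was -0.31 ± 0.0651 (SE), adjusted p = 0.000639. IRF3 was assigned 86.4 to 87.6% of the pair's counts with TAK-981 and 68.8 to 70.5% with DMSO, and BCL2L12 by itself changed by -1.52 ± 0.0744 (SE), adjusted p = 5.45e-10.

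IRF8 gave the largest fall among the members. This lineage factor of monocytes and dendritic cells had 178, 177 and 186 CPM with TAK-981 and 601, 598 and 593 CPM with DMSO. The groups were tight and far apart, and the log2 fold change was -1.73 ± 0.0628 (SE), adjusted p = 4.51e-11. In FPKM, which can be compared between genes, IRF8 was the highest member in DMSO-treated THP-1. It stood at 76.4 ± 1.93 with TAK-981 and 214 ± 2.17 with DMSO (SD, n = 3 each). With TAK-981, IRF3 was at 76.5 ± 5.17 FPKM, which overlapped the level of IRF8.

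**Figure D2:**
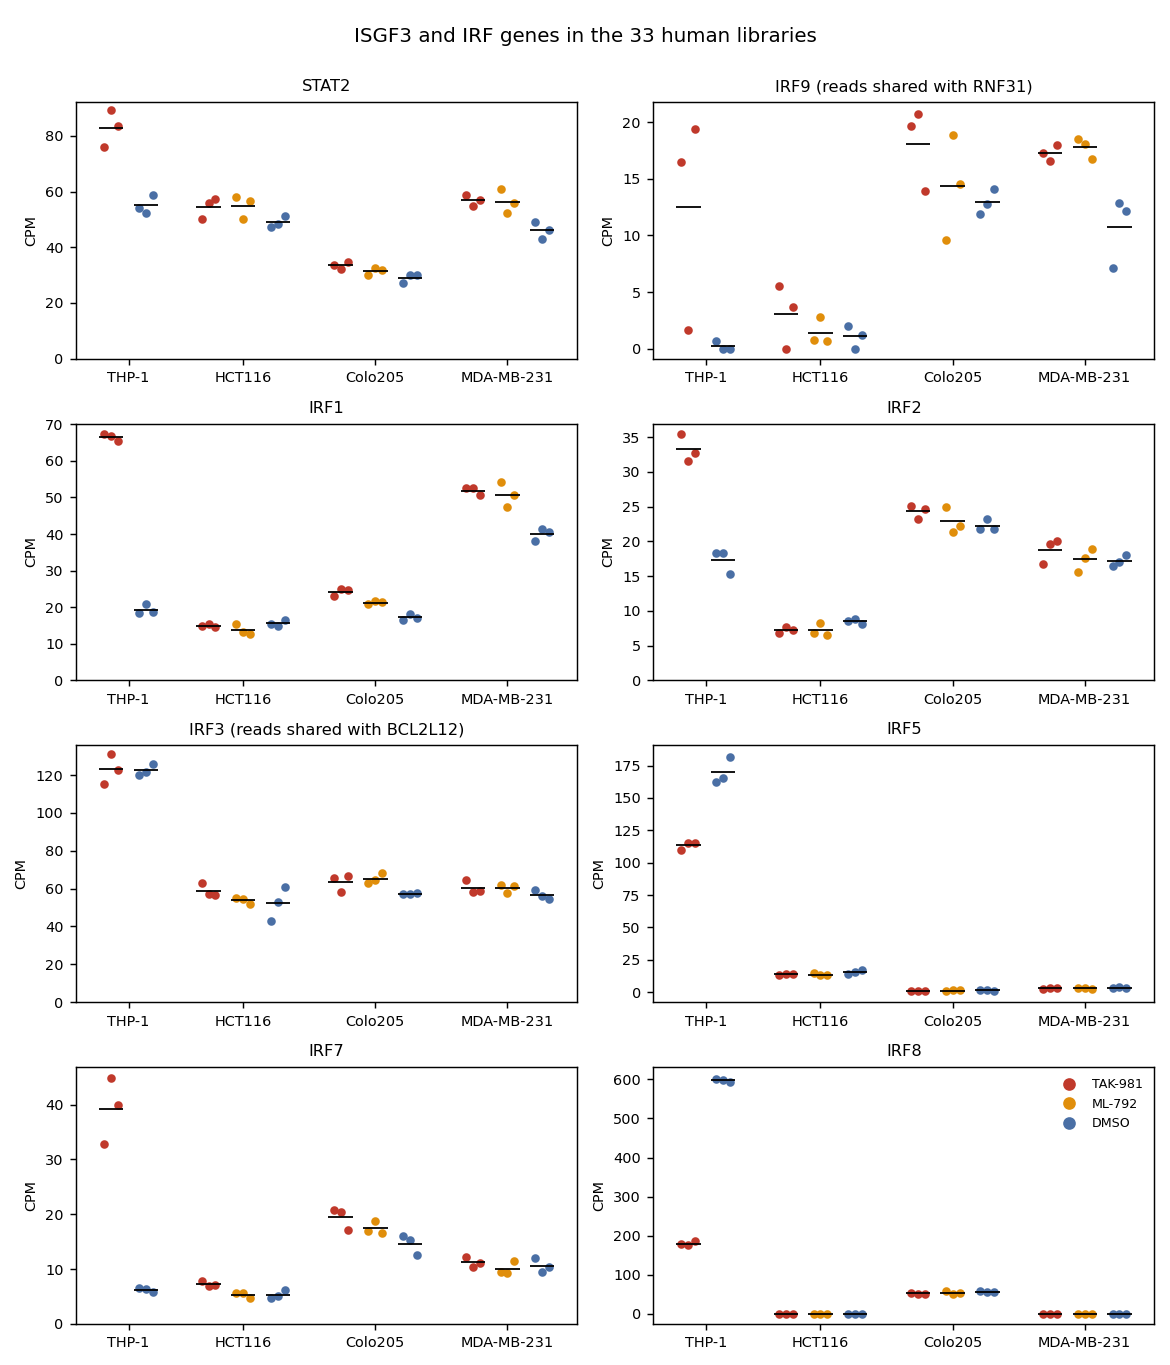
Points are the CPM of each member in each library on linear axes that differ between panels, short lines are group means of 3 libraries, and colours mark the treatment. In THP-1 all TAK-981 points of STAT2, IRF1, IRF2 and IRF7 are above all DMSO points, those of IRF5 and IRF8 are below, and the carcinoma lines show smaller differences.

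The genes around the members in THP-1 were taken from 9 lists of interferon biology, chosen with earlier results of these data known. Over all genes tested in THP-1 35.5% rose and 33.9% fell. Of 38 ISGF3 target genes, 36 rose and 2 fell, with a median log2 fold change of 1.61, beside 0.0256 over all genes tested. MX1 (3.78, adjusted p = 4.43e-11), OAS3 (2.68, adjusted p = 4.43e-11), OAS2 (2.66, adjusted p = 5.53e-11) and IFIT2 (3.56, adjusted p = 1.03e-10), all antiviral effectors, had the smallest adjusted p-values. The 2 that fell, chosen after their values were seen, were IFITM2 (-1.15, adjusted p = 5.82e-09) and BST2 (-0.57, adjusted p = 1.73e-06), both of which restrict enveloped viruses. Of 16 tested IRF1 target genes, 9 rose and 4 fell, with a median of 0.86. The guanylate-binding proteins GBP5 (2.26, adjusted p = 2.02e-10), GBP2 (2.62, adjusted p = 3.65e-08) and GBP3 (1.63, adjusted p = 1.02e-07) and the peptide transporter TAP1 (1.04, adjusted p = 9.33e-09) led by adjusted p. Those that fell, also named after their values were seen, were WARS (-0.71, adjusted p = 1.92e-07), TAPBP (-0.70, adjusted p = 8.41e-07), PSMB10 (-0.28, adjusted p = 0.00124) and PSMB9 (-0.30, adjusted p = 0.00465).

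Upstream of the members, 14 of 20 tested sensors, adaptors and kinases that activate IRF3, IRF5 or IRF7 rose in THP-1 and 2 fell, with a median of 0.55. Over all genes tested there 69.4% were called, 35.5% higher and 33.9% lower. The RNA sensor DDX58 (RIG-I, 1.68, adjusted p = 6.12e-09), its relative DHX58 (1.65, adjusted p = 1.07e-07) and the IRF3 kinase TBK1 (1.10, adjusted p = 1.97e-08) rose, and the Toll-like receptor kinase IRAK1 fell (-1.22, adjusted p = 1.16e-09). The other one that fell, named after its value was seen, was the adaptor MAVS (-0.23, adjusted p = 0.0187). Of 8 tested receptor chains and kinases 4 rose and 2 fell. Both interferon-γ receptor chains, IFNGR2 (0.94, adjusted p = 1.84e-08) and IFNGR1 (0.60, adjusted p = 1.08e-05), were among the rises, while the type I receptor chain IFNAR1 (-0.37, adjusted p = 0.000251) and the kinase TYK2 (-0.37, adjusted p = 0.000992) were lower. None of the 21 interferon genes listed had enough counts for the test in THP-1, where IFNB1 reached at most 7 counts in a TAK-981 library and 3 in a DMSO library.

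Of 11 negative regulators of interferon signalling 6 rose and 3 fell in THP-1, where 69.4% of 14526 genes were called, 35.5% higher and 33.9% lower. The phosphatase PTPN6 (1.48, adjusted p = 1.91e-10), the kinase inhibitor SOCS1 (3.12, adjusted p = 1.33e-08) and the ISG15 protease USP18 (1.75, adjusted p = 1.61e-07) rose, and the phosphatase PTPN11 fell (-0.74, adjusted p = 1.81e-07). Of 7 tested other STAT and IRF genes edgeR called 7, DESeq2 6 and limma on FPKM 5. In edgeR 5 were higher, among them STAT3 (0.56, adjusted p = 4.57e-05), STAT5A (0.59, adjusted p = 0.000340) and STAT6 (0.33, adjusted p = 0.000910). The 2 lower ones, named after their values were seen, were STAT5B (-0.21, adjusted p = 0.0128) and STAT4 (-0.74, adjusted p = 0.0412). Of 12 IRF partners and corepressors 6 rose and 3 fell. BATF3, a partner of IRF8 in dendritic cells, fell (-1.62, adjusted p = 1.33e-07), as did IKZF1 (-0.58, adjusted p = 3.26e-06), whereas the coactivator EP300 (0.79, adjusted p = 2.88e-07) and the IRF2-binding protein IRF2BPL (1.30, adjusted p = 1.27e-06) rose. The 12 IRF8-linked monocyte genes were split, with 6 higher, 5 lower and a median of 0.04. MS4A7 (-1.19, adjusted p = 9.94e-09) and the protease inhibitor CST3 (-1.37, adjusted p = 2.17e-08) fell, and the lipopolysaccharide co-receptor CD14 rose (2.39, adjusted p = 2.96e-08).

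**Figure D3:**
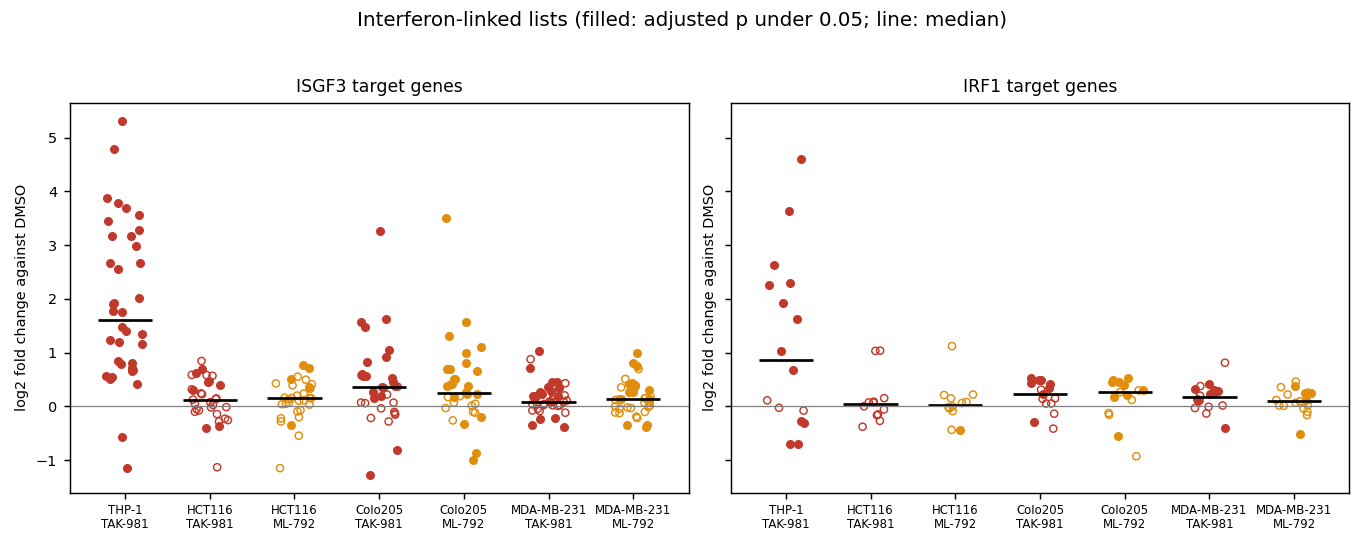
Points are single genes of the ISGF3 target list (left) and the IRF1 target list (right), by comparison, with the log2 fold change against DMSO on the vertical axis, and black lines are medians. Filled points had an adjusted p under 0.05, and GBP1 in THP-1, which had no count with DMSO, is drawn at the lower bound set by 3 counts over the group. The ISGF3 list is centred well above 0 in THP-1 and nearer 0 in the carcinoma lines.

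In HCT116 no member passed the test with either compound, where 14.4% (TAK-981) and 11.3% (ML-792) of 14563 genes were called. Over all genes these counts moved with single libraries. For TAK-981 2096 genes were called, but 1374 without DMSO replicate 1 and 1281 without DMSO replicate 2. For ML-792 1641 were called, but 2468 without TAK-981 replicate 1, 944 and 1032 without DMSO replicate 2 or 3, and 1064, 768 and 874 without ML-792 replicate 1, 2 or 3. Of the 7 members tested, 1 had an unadjusted p under 0.05 with each compound, and DESeq2 and limma on FPKM called 0 with either. IRF8 was not tested, since it had 1 count in 1 of the 9 libraries and 0 in the others. IRF7 came nearest, with 7.87, 6.82 and 7.09 CPM with TAK-981 and 4.79, 5.04 and 6.18 CPM with DMSO. These groups did not overlap, the log2 difference was 0.44 ± 0.14 (SE), adjusted p = 0.0518, and without DMSO replicate 3 it was 0.56 and passed the test. With ML-792 IRF7 had 5.66, 5.68 and 4.64 CPM, which overlapped DMSO. STAT2 had 50.2, 55.9 and 57.2 CPM with TAK-981 and 47.4, 48.3 and 51.1 CPM with DMSO, and the ranges overlapped (0.15 ± 0.0785 (SE), adjusted p = 0.210). IRF1 had 14.7, 15.5 and 14.4 CPM with TAK-981 and 15.4, 15 and 16.5 CPM with DMSO, also overlapping, with a log2 difference of -0.07 (95% interval -0.27 to 0.13). With ML-792 the difference of IRF1 was -0.18 (95% interval -0.38 to 0.02) and that of STAT2 0.17 (95% interval -0.0014 to 0.34). The sum of IRF9 and RNF31 did not pass with TAK-981 (0.16 ± 0.0718 (SE), adjusted p = 0.145) or with ML-792 (0.03 ± 0.0721 (SE), adjusted p = 0.826). IRF9 itself was assigned 98.5, 0 and 70.9 counts with TAK-981, 14.4, 53.8 and 13.8 counts with ML-792 and 39.7, 0 and 25.7 with DMSO, and the ranges of all groups overlapped. The log2 difference of IRF2 was -0.23 (95% interval -0.48 to 0.03) with TAK-981 and -0.24 (95% interval -0.50 to 0.02) with ML-792. Its TAK-981 libraries lay below the DMSO libraries without overlap and its ML-792 libraries overlapped them. The log2 difference of IRF5 was -0.20 (95% interval -0.41 to 0.003) with TAK-981 and -0.22 (95% interval -0.42 to -0.01) with ML-792. That of IRF3 was 0.17 (95% interval -0.05 to 0.39) with TAK-981 and 0.04 (95% interval -0.18 to 0.26) with ML-792.

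Around the members in HCT116, 6 of 31 tested ISGF3 target genes rose and 2 fell with TAK-981, and 4 rose and 1 fell with ML-792. IFITM3 (0.48, adjusted p = 0.00165) and IFIT1 (0.69, adjusted p = 0.00525) led with TAK-981, and IFIT1 (0.77, adjusted p = 0.00277) and HERC5 (0.51, adjusted p = 0.00390) with ML-792. IRF2BPL rose with TAK-981 (0.74, adjusted p = 2.87e-05) and ML-792 (0.79, adjusted p = 1.91e-05). Over all genes 7.66% rose and 6.73% fell with TAK-981, and 5.99% rose and 5.27% fell with ML-792. Of 12 tested IRF1 target genes, edgeR called 0 with TAK-981, where 3 had an unadjusted p under 0.05 and DESeq2 and limma on FPKM called 0. With ML-792 the MHC class I activator NLRC5 fell (-0.44, adjusted p = 0.0423), where DESeq2 and limma on FPKM called 0. Of 16 sensors, adaptors and kinases edgeR called 0 with TAK-981, where 2 had an unadjusted p under 0.05 and DESeq2 called 1 and limma 0, and TLR3 rose with ML-792 (0.54, adjusted p = 0.0382), where DESeq2 and limma called 0. Of the receptor chains IL10RB rose with TAK-981 (0.31, adjusted p = 0.0203) and ML-792 (0.42, adjusted p = 0.00372). Of the negative regulators PTPN6 rose with TAK-981 (0.30, adjusted p = 0.0220), and SOCS3 (-0.36, adjusted p = 0.0243) and PIAS3 (-0.30, adjusted p = 0.0274) fell with ML-792. Of 6 other STAT and IRF genes, STAT5B fell with ML-792 (-0.38, adjusted p = 0.0342; limma on FPKM called 0), and edgeR called 0 with TAK-981, where 2 had an unadjusted p under 0.05, DESeq2 called 1 and limma 0. Of 5 tested IRF8-linked monocyte genes 1 rose and 1 fell with TAK-981, and 1 rose and 2 fell with ML-792. Among them the early-response factor EGR1 fell with TAK-981 (-0.33, adjusted p = 0.0161) and ML-792 (-0.48, adjusted p = 0.00168). The epithelial interferon gene IFNE, the only interferon gene with 10 or more counts in any library, rose with TAK-981 (1.23, adjusted p = 0.0144) and did not pass with ML-792 (0.53, adjusted p = 0.315).

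In Colo205, 3 of 8 members rose with TAK-981, where 35.9% of 14152 genes were called, 17.9% higher and 18% lower. With ML-792 2 of 8 rose, where 41.8% were called, 20.9% higher and 20.8% lower. IRF1 had 23.1, 24.9 and 24.6 CPM with TAK-981, 20.7, 21.6 and 21.3 CPM with ML-792 and 16.4, 18.1 and 17.1 CPM with DMSO. Every library of either inhibitor was above every DMSO library, and the log2 fold changes were 0.49 ± 0.0672 (SE), adjusted p = 7.76e-05, with TAK-981 and 0.30 ± 0.0682 (SE), adjusted p = 0.00306, with ML-792. On FPKM its call with ML-792 was lost (0.29, adjusted p = 0.114 by limma). IRF7 had 20.7, 20.3 and 17.2 CPM with TAK-981, 17.0, 18.7 and 16.5 CPM with ML-792 and 16.0, 15.2 and 12.6 CPM with DMSO, and neither inhibitor overlapped DMSO. It passed with TAK-981 (0.41 ± 0.10 (SE), adjusted p = 0.00627) and not with ML-792 (0.26 ± 0.10 (SE), adjusted p = 0.0603), where it passed without DMSO replicate 1 (0.32) or with the replicate number as a block (0.26, adjusted p = 0.0114). STAT2 had 33.7, 32.2 and 34.5 CPM with TAK-981, 30.1, 32.4 and 31.8 CPM with ML-792 and 27.0, 30.0 and 30.1 CPM with DMSO, and the TAK-981 libraries did not overlap DMSO. Its call with TAK-981 (0.21 ± 0.0630 (SE), adjusted p = 0.0206) was lost on FPKM (0.21, adjusted p = 0.0653 by limma) and without DMSO replicate 1 (0.16), TAK-981 replicate 1 (0.20) or TAK-981 replicate 3 (0.18). IRF3 passed with ML-792 (0.19 ± 0.0575 (SE), adjusted p = 0.0170), but not without ML-792 replicate 3 (0.16), and just missed with TAK-981 (0.15 ± 0.0575 (SE), adjusted p = 0.0527), where it passed without TAK-981 replicate 2 (0.21) or ML-792 replicate 2 (0.15), on FPKM (0.16) and with the block (0.15, adjusted p = 0.0233).

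The pair of IRF9 and RNF31 rose in Colo205 with TAK-981 (0.20 ± 0.0582 (SE), adjusted p = 0.0141) and ML-792 (0.22 ± 0.0583 (SE), adjusted p = 0.00923). With ML-792, RNF31 by itself passed (0.24 ± 0.0658 (SE), adjusted p = 0.0106) and IRF9 by itself did not (0.17 ± 0.20 (SE), adjusted p = 0.529). With TAK-981, RNF31 by itself did not pass (0.07 ± 0.0662 (SE), adjusted p = 0.460). IRF9 by itself was assigned 423, 378 and 285 counts with TAK-981, 165, 429 and 266 counts with ML-792 and 232, 277 and 290 with DMSO, and the ranges of both inhibitors overlapped that of DMSO. By itself it did not pass with TAK-981 (0.48 ± 0.19 (SE), adjusted p = 0.0648), but did without TAK-981 replicate 3 (0.64), ML-792 replicate 1 (0.48) or ML-792 replicate 2 (0.48), without the low-count filter (0.48) and with the replicate number as a block (0.48, adjusted p = 0.0202). Colo205 was the carcinoma line with IRF8, at 54.5, 51.8 and 51.8 CPM with TAK-981, 58.1, 49.6 and 53.7 CPM with ML-792 and 58.5, 55.9 and 55.7 CPM with DMSO. The log2 difference from DMSO was -0.10 (95% interval -0.23 to 0.02) with TAK-981 and -0.08 (95% interval -0.21 to 0.05) with ML-792. IRF2 gave 0.13 (95% interval -0.02 to 0.29) with TAK-981 and 0.04 (95% interval -0.12 to 0.19) with ML-792. IRF5 had few counts there, at 25, 18 and 21 counts with TAK-981, 10, 37 and 24 counts with ML-792 and 26, 37 and 23 with DMSO, and all groups overlapped.

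Of 32 tested ISGF3 target genes in Colo205, 17 rose and 2 fell with TAK-981 (median 0.35), and 18 rose and 4 fell with ML-792 (median 0.25), beside medians over all genes of 0.000285 and 0.00235. Over all genes 17.9% rose and 18% fell with TAK-981, and 20.9% rose and 20.8% fell with ML-792. OAS1 (1.57, adjusted p = 1.19e-09) and CMPK2 (3.26, adjusted p = 1.35e-08) led with TAK-981 and also with ML-792, at 1.57 and 3.51. The 2 that fell with TAK-981, named after their values were seen, were XAF1 (-0.81, adjusted p = 3.53e-06) and OASL (-1.27, adjusted p = 1.24e-05). Of 15 tested IRF1 target genes, 7 rose and 1 fell with TAK-981, and 8 rose and 1 fell with ML-792. TAP1 (0.42, adjusted p = 2.98e-05) and GBP3 (0.53, adjusted p = 4.30e-05) led with TAK-981, and TAP1 (0.45, adjusted p = 1.64e-05) and PSMB8 (0.45, adjusted p = 3.92e-05) with ML-792. Of 19 sensors, adaptors and kinases 4 rose and 3 fell with each compound. The RNA receptor TLR3 rose with TAK-981 (1.31, adjusted p = 4.76e-06) and ML-792 (0.86, adjusted p = 0.000221), as did the adaptor MYD88 (0.50, adjusted p = 0.000451 and 0.56, adjusted p = 0.000163) and BATF, a partner of IRFs on composite elements (0.92, adjusted p = 3.77e-08 and 0.90, adjusted p = 4.97e-08). Of 9 receptor chains and kinases 1 rose and 1 fell with each compound, with IFNGR1 lower in TAK-981 (-0.47, adjusted p = 1.12e-05) and ML-792 (-0.56, adjusted p = 2.42e-06) and IFNAR1 higher (0.21, adjusted p = 0.00886 and 0.16, adjusted p = 0.0392). Of 10 negative regulators 3 rose and 4 fell with TAK-981, led by the SUMO ligases PIAS2 (0.51, adjusted p = 0.000222) and PIAS3 (-0.55, adjusted p = 0.00133), and 3 rose and 3 fell with ML-792, led by PTPN11 (-0.29, adjusted p = 0.000430) and PTPN6 (0.39, adjusted p = 0.000596). Of 6 other STAT and IRF genes STAT3 fell with TAK-981 (-0.25, adjusted p = 0.00210) and ML-792 (-0.21, adjusted p = 0.00506), and STAT6 rose with ML-792 (0.14, adjusted p = 0.0465). Of 8 IRF8-linked monocyte genes 3 rose with each compound, led by KLF4 (0.92, adjusted p = 3.62e-07 with TAK-981 and 0.79, adjusted p = 1.54e-06 with ML-792) and the protease CTSS (0.43, adjusted p = 1.69e-05 and 0.45, adjusted p = 1.29e-05).

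In MDA-MB-231, STAT2, IRF9 by itself and IRF1 passed with both compounds, 3 of 7 members tested, all higher. There 20.2% of 13976 genes were called with TAK-981, 10.6% higher and 9.52% lower, and 22.6% with ML-792, 11.6% higher and 11% lower. IRF1 had 52.5, 52.5 and 50.6 CPM with TAK-981, 54.2, 47.4 and 50.6 CPM with ML-792 and 38.1, 41.4 and 40.4 CPM with DMSO. Neither inhibitor overlapped DMSO, and the log2 fold changes were 0.38 ± 0.0548 (SE), adjusted p = 0.000121, with TAK-981 and 0.34 ± 0.0545 (SE), adjusted p = 0.000258, with ML-792. On FPKM the call with TAK-981 was lost (0.29, adjusted p = 0.0958 by limma). STAT2 had 58.8, 54.8 and 57.1 CPM with TAK-981, 60.8, 52.4 and 55.9 CPM with ML-792 and 49.1, 42.8 and 46.1 CPM with DMSO. It too was without overlap (0.30 ± 0.0611 (SE), adjusted p = 0.00198, with TAK-981 and 0.29 ± 0.0606 (SE), adjusted p = 0.00249, with ML-792). IRF9 by itself was assigned 337, 374 and 354 counts with TAK-981, 383, 464 and 361 counts with ML-792 and 154, 276 and 312 with DMSO, without overlap. Its log2 fold change was 0.68 with TAK-981 and 0.72 with ML-792, while the pair with RNF31 gave 0.19 ± 0.0529 (SE), adjusted p = 0.0165, with TAK-981 and 0.15 ± 0.0526 (SE), adjusted p = 0.0452, with ML-792. In the DMSO libraries IRF9 was assigned 13.8, 26.9 and 27.4% of the pair. The share was 30.1 to 33.1% with TAK-981 and 31.5 to 35.2% with ML-792. The DMSO library with 154 IRF9 counts held 965 RNF31 counts, against 753 and 827 in the others. The value of IRF9 by itself depends on how the counts were divided. IRF7 had 12.2, 10.4 and 11.1 CPM with TAK-981, 9.43, 9.25 and 11.4 CPM with ML-792 and 12.0, 9.49 and 10.3 CPM with DMSO. All of these overlapped, with a log2 difference of 0.08 (95% interval -0.15 to 0.31) with TAK-981 and -0.08 (95% interval -0.31 to 0.15) with ML-792. IRF2 gave 0.13 (95% interval -0.05 to 0.31) with TAK-981 and 0.02 (95% interval -0.16 to 0.20) with ML-792. IRF3 gave 0.10 (95% interval -0.02 to 0.21) and 0.09 (95% interval -0.02 to 0.21) in the same order, and IRF5 gave -0.22 (95% interval -0.55 to 0.12) and -0.27 (95% interval -0.60 to 0.07). IRF8 had 0 counts in all 9 libraries of MDA-MB-231.

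Of 38 ISGF3 target genes in MDA-MB-231, 12 rose and 4 fell with TAK-981 (median 0.09), and 13 rose and 3 fell with ML-792 (median 0.13). Over all genes 10.6% rose and 9.52% fell with TAK-981, and 11.6% rose and 11% fell with ML-792. The growth suppressors SAMD9L (1.03, adjusted p = 3.42e-09) and SAMD9 (0.71, adjusted p = 6.86e-07) led with TAK-981 and with ML-792, at 1.00 and 0.80. The 4 that fell with TAK-981, named after their values were seen, were ISG15 (-0.36, adjusted p = 0.000252), OAS2 (-0.38, adjusted p = 0.00259), OAS3 (-0.24, adjusted p = 0.00439) and IFIT1 (-0.22, adjusted p = 0.0292). Of 18 tested IRF1 target genes, 7 rose and 1 fell with TAK-981, led by GBP2 (0.41, adjusted p = 0.000214) and TAP1 (0.23, adjusted p = 0.000710), and 4 rose and 1 fell with ML-792, led by CD274 and GBP2 (0.39, adjusted p = 0.000346). The one that fell was CD274, which encodes PD-L1, with TAK-981 (-0.40, adjusted p = 0.00162) and ML-792 (-0.51, adjusted p = 0.000180). Of 21 sensors, adaptors and kinases 8 rose and 1 fell with TAK-981, led by DDX58 (0.40, adjusted p = 3.83e-05) and the adaptor TMEM173 (STING, 0.38, adjusted p = 0.000959), and 4 rose and 3 fell with ML-792, led by DDX58 (0.43, adjusted p = 1.86e-05) and the kinase CHUK (0.25, adjusted p = 0.000365). IFNAR1 rose with TAK-981 (0.20, adjusted p = 0.0146) and ML-792 (0.20, adjusted p = 0.0119), the 1 of 9 receptor chains and kinases called with each. Of the corepressors IRF2BP2 fell with TAK-981 (-0.23, adjusted p = 0.000873) and ML-792 (-0.34, adjusted p = 2.00e-05), and EP300 rose (0.22, adjusted p = 0.00609 and 0.21, adjusted p = 0.00768). Of 11 negative regulators PTPN11 rose with TAK-981 (0.20, adjusted p = 0.0403) and ML-792 (0.20, adjusted p = 0.0356), and PIAS2 fell with TAK-981 (-0.21, adjusted p = 0.0359), while DESeq2 and limma on FPKM called 0 of these 11 with either compound. STAT5A rose with TAK-981 (0.41, adjusted p = 0.00299), and with ML-792 edgeR called 0 of 6 other STAT and IRF genes, where 3 had an unadjusted p under 0.05 and DESeq2 and limma on FPKM called 0. Of 9 IRF8-linked monocyte genes 1 rose and 2 fell with TAK-981, and 2 rose and 1 fell with ML-792. KLF4, which rose, led with TAK-981 (0.60, adjusted p = 9.28e-07) and ML-792 (0.66, adjusted p = 2.73e-07). The comparisons of TAK-981 and of ML-792 with DMSO share the DMSO libraries of their line.

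**Figure D4:**
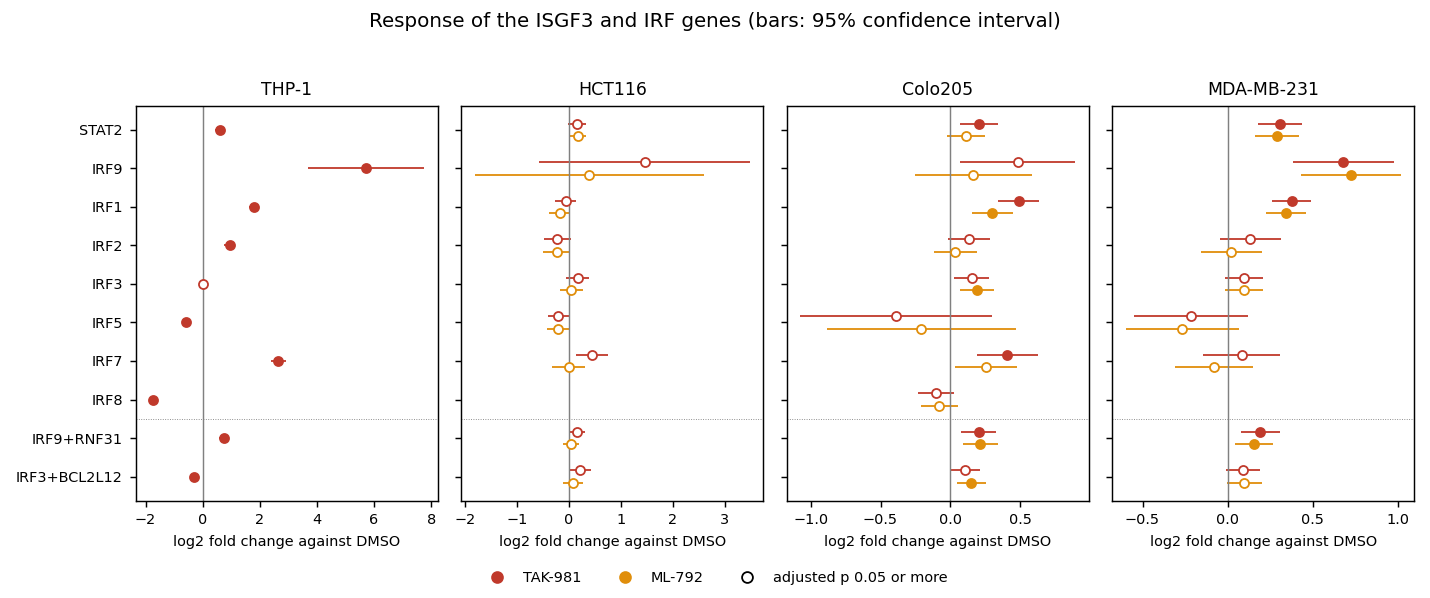
Points are log2 fold changes of each member against DMSO with 95% intervals, by line, on axes of different width, and the lower rows give the summed pairs. Filled points had an adjusted p under 0.05, IRF8 is left out where it had at most 1 count, and the wide intervals of IRF9 in THP-1 and HCT116 go with IRF9 counts at or near 0.

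Between TAK-981 and ML-792, at the same dose and time, no member passed the test in HCT116, Colo205 or MDA-MB-231. Over all genes 0.0481%, 0.00707% and 0.0215% were called in these lines. Members with an unadjusted p under 0.05 numbered 1 of 7 in HCT116, 1 of 8 in Colo205 and 0 of 7 in MDA-MB-231, and DESeq2 and limma on FPKM called 0 in each. The smallest unadjusted p-values belonged to IRF7 in HCT116, at 0.45 (95% interval 0.14 to 0.75), and IRF1 in Colo205, at 0.19 (95% interval 0.05 to 0.33), both higher with TAK-981. In MDA-MB-231 the interval for STAT2 was -0.11 to 0.14 and that for IRF1 -0.08 to 0.15. The interval for IRF9 by itself there was -0.32 to 0.23. In all 22 such pairs of values were compared, and missing the threshold does not show that the compounds act alike on these genes.

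Whether the response to TAK-981 differed between the lines was tested as the interaction of treatment and line over 24 libraries. It differed for 7 of 8 members, where 57.7% of 17363 genes differed, and for 5 with DESeq2 and 6 with limma on FPKM. The call of IRF5 (adjusted p = 0.00854) was lost in 15 of 31 alternatives, with adjusted p-values up to 0.913, and that of IRF9 (adjusted p = 0.00358) with DESeq2 (0.0731). IRF3 by itself was the exception (adjusted p = 0.479), and the sum of IRF3 and BCL2L12 differed (adjusted p = 3.03e-04). THP-1 minus HCT116 called 6 members (47.2% of genes called), THP-1 minus Colo205 6 (43.7%) and THP-1 minus MDA-MB-231 6 (45.2%). The log2 response of IRF7 in THP-1 minus that in HCT116 was 2.19 ± 0.20 (SE), adjusted p = 3.44e-10, and the difference was 2.21 for THP-1 minus Colo205 and 2.57 for THP-1 minus MDA-MB-231. IRF1 gave differences of 1.84, 1.27 and 1.41 in the same order, with adjusted p-values up to 1.83e-11. IRF2 gave 1.15, 0.78 and 0.81. The differences of STAT2 were smaller, at 0.42, 0.36 and 0.29 (adjusted p = 0.000823, 0.00530 and 0.0181). For the pair of IRF9 and RNF31 they were 0.55, 0.50 and 0.54, with adjusted p-values up to 0.000122. IRF8, comparable only with Colo205, responded by -1.66 ± 0.0829 (SE), adjusted p = 4.63e-13, in THP-1 minus Colo205.

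Among the carcinoma lines the response of IRF1 differed in HCT116 on counts. Its response in HCT116 minus that in Colo205 was -0.57 ± 0.10 (SE), adjusted p = 0.000293, and minus that in MDA-MB-231 it was -0.42 ± 0.10 (SE), adjusted p = 0.00640. On counts it was the 1 member called in HCT116 minus Colo205 (13.3% of genes called) and in HCT116 minus MDA-MB-231 (6.85%), and 0 members were called in Colo205 minus MDA-MB-231 (11.2%), where 1 had an unadjusted p under 0.05 and DESeq2 and limma on FPKM called 0. On the deposited FPKM values the differences of IRF1 were -0.62 and -0.24 and did not pass. There IRF2 passed in their place, at -0.40 (adjusted p = 0.0154 by limma) for HCT116 minus Colo205 and -0.41 (adjusted p = 0.0276) for HCT116 minus MDA-MB-231. On counts IRF2 joined IRF1 in HCT116 minus Colo205 without THP-1 TAK-981 replicate 1 (-0.37) or Colo205 TAK-981 replicate 2 (-0.41). The differences of IRF5 in THP-1 against MDA-MB-231 (-0.37) and of IRF9 by itself in THP-1 against HCT116 (4.29) were each lost under alternatives, to -0.28 with RLE scaling and -0.12 on FPKM for IRF5 and to 4.31 with DESeq2 (adjusted p = 0.0593) for IRF9.

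Without inhibitor most members differed between the lines, as most genes did. Line and culture plate cannot be told apart for THP-1 against the carcinoma lines. Over 12 DMSO libraries, 7, 7 and 7 members differed between THP-1 and HCT116, Colo205 and MDA-MB-231 (84.6%, 86% and 84.8% of 16782 genes called), 8 between HCT116 and Colo205 (79.9%), 6 between HCT116 and MDA-MB-231 (78.7%) and 6 between Colo205 and MDA-MB-231 (81.5%). IRF8 averaged 214 ± 2.17 FPKM in THP-1 and 22.2 ± 0.412 FPKM in Colo205 (SD, n = 3 each), and was listed at 0 in every DMSO library of HCT116 and MDA-MB-231. Against a floor of 3 counts in each library, it was at least 4332-fold higher in THP-1 than in HCT116, and at least 425-fold higher in Colo205 than in MDA-MB-231. Of the monocytic markers LYZ (1188 FPKM) and CD68 (151 FPKM) were also high in DMSO-treated Colo205, while the leukocyte marker PTPRC was at 0.0080 FPKM and the myeloid factor SPI1 had no count. Their part in the IRF8 level was not tested.

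IRF5 followed the order THP-1, HCT116, MDA-MB-231, Colo205, at 61.3 ± 4.54, 6.22 ± 0.766, 1.52 ± 0.213 and 0.521 ± 0.107 FPKM, and each step passed the test on counts. IRF3 was highest in THP-1 at 68.9 ± 2.36 FPKM, and 36.3 ± 1.87, 34.9 ± 0.400 and 31.1 ± 6.04 FPKM in MDA-MB-231, Colo205 and HCT116 lay within their spread of each other. On counts IRF3 was called between HCT116 and Colo205 (-0.22 ± 0.0864 (SE), adjusted p = 0.0259), where the sum with BCL2L12 gave 0.075. It was also called for HCT116 against MDA-MB-231 (-0.22), where the sum gave -0.30 (adjusted p = 0.00107). That call of IRF3 by itself was lost in 3 of 19 alternatives. For Colo205 against MDA-MB-231 IRF3 by itself gave 0.0026 and the sum -0.38. The full order of IRF3 among the carcinoma lines is therefore not given. IRF1 was highest in MDA-MB-231, at 14.3 ± 0.747 FPKM, against 6.14 ± 0.757 in Colo205, 5.40 ± 0.330 in THP-1 and 5.18 ± 0.428 in HCT116. The last 3 values overlapped, and on counts IRF1 missed the threshold between THP-1 and Colo205 (0.16 ± 0.0840 (SE), adjusted p = 0.0894). It was called on counts for THP-1 against HCT116 (0.39) and for HCT116 against Colo205 (-0.23). These calls were lost in 1 and 2 of 19 alternatives. STAT2 was lowest in Colo205, at 6.76 ± 0.497 FPKM, and 10.8 ± 0.688, 11.8 ± 0.878 and 14.6 ± 0.986 FPKM in MDA-MB-231, HCT116 and THP-1. It missed the threshold between HCT116 and MDA-MB-231 (-0.01 ± 0.0691 (SE), adjusted p = 0.871).

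IRF7 was highest in Colo205 at 7.79 ± 0.976 FPKM, then 5.53 ± 0.728 in MDA-MB-231, and 3.21 ± 0.264 in THP-1 and 2.86 ± 0.419 in HCT116. The last pair missed the threshold (0.30 ± 0.14 (SE), adjusted p = 0.0545), and passed in 5 of 19 alternatives, with an adjusted p down to 0.0160 without HCT116 DMSO replicate 3. With TAK-981, IRF7 in THP-1 reached 23.1 ± 3.73 FPKM, above the 10.4 ± 1.12 FPKM of Colo205. IRF2 ran from 3.78 ± 0.118 FPKM in HCT116 over 7.32 ± 0.716 in THP-1 and 8.13 ± 0.205 in MDA-MB-231 to 10.6 ± 0.642 in Colo205, and THP-1 and MDA-MB-231 were not told apart (-0.01 ± 0.0880 (SE), adjusted p = 0.907). IRF9 by itself was listed lowest in THP-1 and HCT116, but summed with RNF31 the order turned, with THP-1 above HCT116 (0.20), Colo205 (0.84) and MDA-MB-231 (0.69) on the log2 scale. Its baseline level is therefore not ranked between lines.

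**Figure D5:**
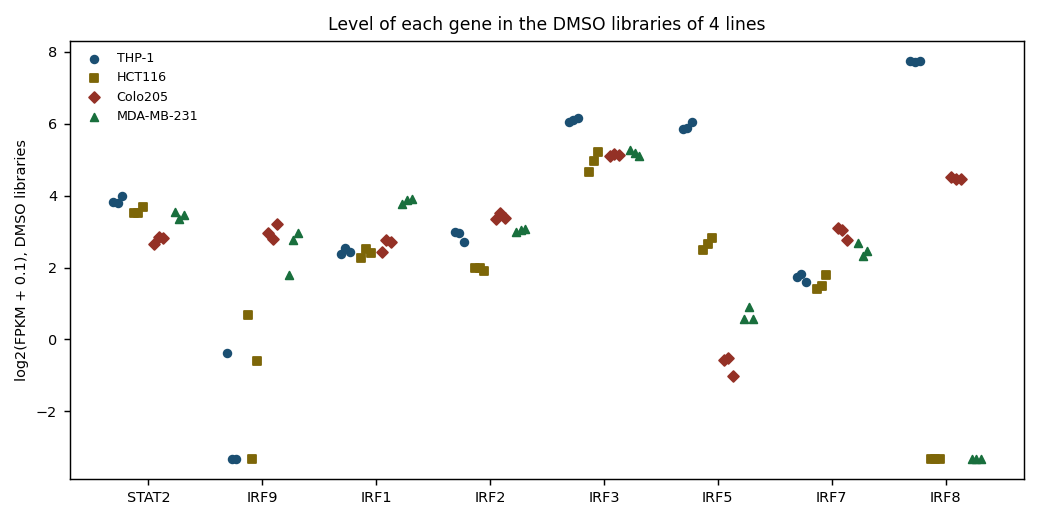
Points are the deposited FPKM of each member in the 12 DMSO libraries as log2(FPKM + 0.1), 3 libraries per line, with symbols and colours marking the line. IRF8 separates THP-1 and Colo205 from HCT116 and MDA-MB-231, whose points at the bottom stand for 0, and IRF5 spreads over the widest range among the members detected in all lines.

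The genes whose pattern was most like a member were found by correlating log2 CPM, taken as the deviation from the line's own DMSO mean, over the 33 libraries. For IRF1 these were PARP14 (r = 0.982), RAPGEF2 (0.972), TXNIP (0.971), ZFP36L1 (0.970) and PARP9 (0.970). For IRF7 they were VASN (0.975), IER5L (0.974), IFIT3 (0.974), CSRNP1 (0.974) and HOXA11 (0.973). For STAT2 they were RHOB (0.924), PGF (0.918), CREBRF (0.913), FBXO32 (0.907) and EPHB3 (0.899), and for IRF9 by itself HIST1H1C (0.816), ARMCX5 (0.814), CRNKL1 (0.814), ZSCAN32 (0.812) and INTS6 (0.811). A row that is not reported here was passed over for STAT2 and another for IRF9. The libraries share their depth and scaling, and the 3 TAK-981 libraries of THP-1 weigh heavily in every value. Over the 27 libraries of the carcinoma lines alone, PARP14 and IRF1 kept r = 0.915 and RHOB and STAT2 had 0.788, whereas IFIT3 and IRF7 had 0.633 and HIST1H1C and IRF9 0.463.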

How the data were processed

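RNA-seq of poly(A) RNA (paired-end reads) was analysed for 33 human libraries in 11 groups of 3. The mouse libraries of the series were not used. The deposited tables pair each gene with estimated counts and FPKM values made by the authors, and no source used here names the aligner, counting tool, genome build, annotation or strand setting. The estimated counts as deposited are partly fractional, with 11.58 to 14.7% of a library's counts in fractional rows, and were rounded. The FPKM values as deposited by the authors carry their own per-library gene lengths and were used for levels between genes.

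From the rounded counts, edgeR 4.0.16 (R 4.3.3) was run with filterByExpr (minimum 10, total 15), TMM scaling and the quasi-likelihood test, and p-values were adjusted by Benjamini-Hochberg over all genes tested, with calls under 0.05. Each line was fitted by itself. The difference in response between lines was an interaction over the 24 DMSO and TAK-981 libraries, and the DMSO levels were compared over 12 libraries. The SE of a log2 fold change is its size divided by the square root of the F statistic of the test. The 95% intervals were built from that SE, so they follow the unadjusted p. CPM values are rounded counts over the TMM-scaled library size. Totals of 17336343 to 25807847 counts set the precision.

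Members were found by symbol. The members and the 9 gene lists were chosen with earlier results of these data known. In each list up to 4 genes with the smallest adjusted p were named in THP-1 and up to 2 in the other lines, and a few rows are not reported here. Alternatives were DESeq2 1.42.0, RLE scaling, no low-count filter, mitochondrial rows left out, numbered copies summed, limma 3.58.1 on log2(FPKM + 0.1), each replicate left out, the replicate number as a block, and, chosen after seeing the data, IRF9 summed with RNF31 and IRF3 with BCL2L12. The scripts were tested on simulated data.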

Additional observations from a re-analysis of the deposited data

Results flagged for a closer look

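Each value here was picked out because the TAK-981 response of a member differed between a pair of lines in the interaction test of edgeR, as the log2 response of the first line minus that of the second. For THP-1 minus HCT116 the differences were 0.42 for STAT2, 4.29 for IRF9, 1.84 for IRF1, 1.15 for IRF2, -0.40 for IRF5 and 2.19 for IRF7. For THP-1 minus Colo205 they were 0.36 for STAT2, 5.21 for IRF9, 1.27 for IRF1, 0.78 for IRF2, 2.21 for IRF7 and -1.66 for IRF8. For THP-1 minus MDA-MB-231 they were 0.29 for STAT2, 5.04 for IRF9, 1.41 for IRF1, 0.81 for IRF2, -0.37 for IRF5 and 2.57 for IRF7. Among the carcinoma lines IRF1 gave -0.57 for HCT116 minus Colo205 and -0.42 for HCT116 minus MDA-MB-231. The IRF9 values are those of IRF9 by itself, and the sums with RNF31 gave 0.55, 0.50 and 0.54 for THP-1 minus HCT116, Colo205 and MDA-MB-231. The sums of IRF3 with BCL2L12 gave -0.55, -0.45 and -0.40 in the same order.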

How the results depend on the processing

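Leaving out the summing of pairs, 3347 of 3521 alternative values of single members kept their direction and their side of the threshold, 67 lost the call and 21 gained it. The other 86 changed sign without passing the test under either setting, among them IRF9 with ML-792 in HCT116 (0.39, down to -0.56 with a library left out), and 0 changed sign with a call. Summing IRF9 with RNF31 and IRF3 with BCL2L12, chosen after seeing the data, kept 151 of 172 values, gave 6 a call and changed the sign of 7 that passed under neither setting. It reversed the sign of 8 that had a call before or after summing, by its own construction, since it adds the counts of the neighbour. Those were -0.31 for IRF3 in THP-1 with TAK-981, and, between DMSO levels, IRF9 at 0.20 for THP-1 against HCT116, 0.84 for THP-1 against Colo205, 0.69 for THP-1 against MDA-MB-231, 0.64 for HCT116 against Colo205 and 0.49 for HCT116 against MDA-MB-231, and IRF3 at 0.075 for HCT116 against Colo205 and -0.38 for Colo205 against MDA-MB-231. Before summing, IRF3 had no call in THP-1 with TAK-981 or for Colo205 against MDA-MB-231. After summing it had none for HCT116 against Colo205.

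Leaving out each replicate in turn moved the number of members called from 0 to 1 with TAK-981 in HCT116 (1 without DMSO replicate 3), from 2 to 5 with TAK-981 in Colo205 (5 without ML-792 replicate 2), from 1 to 3 with ML-792 in Colo205 (1 without ML-792 replicate 3), and from 1 to 2 in HCT116 minus Colo205 (2 without THP-1 TAK-981 replicate 1). Over all genes these fits called 1281 to 1903, 3962 to 5572, 4770 to 6119 and 1674 to 2548 genes in the same order. On FPKM 1 member was called with ML-792 in Colo205. The replicate number as a block gave 5 members with TAK-981 in Colo205, adding IRF3 and IRF9, and 0, 3, 3 and 3 with ML-792 in HCT116 and Colo205 and with TAK-981 and ML-792 in MDA-MB-231. Over all genes the block called 6119 with TAK-981 in Colo205, against 5087 without it. For the other comparisons, in the order given, it called 1427, 6908, 3491 and 3854 genes, against 1641, 5909, 2818 and 3164. Same-numbered libraries correlated at -0.103 to 0.0877 in HCT116, -0.0388 to 0.137 in Colo205 and -0.0276 to 0.11 in MDA-MB-231, and correlated best with their own number in 7, 16 and 11 of 18 cases. Restricted to genes averaging 10 CPM or more, the correlations were -0.339 to 0.261, 0.0812 to 0.486 and -0.0941 to 0.418, with 7, 18 and 12 of 18 best with their own number. The labels give the numbers no meaning and not every pair was over 0.1 in any line, so they were not taken as pairs, although in Colo205 the data hint at a shared number. THP-1 groups share no replicate number, and no paired fit of them was possible.

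Of the differences in response, that of IRF5 for THP-1 minus MDA-MB-231 lost its call with DESeq2 and RLE scaling (-0.28 each), without the low-count filter (-0.37), without mitochondrial genes (-0.29), on FPKM (-0.12) and without single libraries (-0.24 to -0.33 where lost), that of IRF5 for THP-1 minus HCT116 on FPKM (-0.08), and that of IRF9 by itself for THP-1 minus HCT116 with DESeq2 and without any 1 of 5 libraries (3.51 to 4.29). Between DMSO levels calls of IRF9 by itself and IRF1 for THP-1 against HCT116, of IRF1 and IRF3 for HCT116 against Colo205 and of IRF3 for HCT116 against MDA-MB-231 were lost on FPKM, with DESeq2 or without single libraries. The cause was not tested. The median of all genes was 0.0187, -0.0169 and 0.0384 for THP-1 minus HCT116, Colo205 and MDA-MB-231. In the same order, RLE scaling shifted it to 0.121, 0.0766 and 0.120, and DESeq2 to 0.115, 0.0724 and 0.112. Leaving out mitochondrial rows shifted it to 0.102, 0.0637 and 0.115, and FPKM to 0.224, 0.184 and 0.200. Over all genes, TAK-981 against ML-792 called 7, 1 and 3 genes in HCT116, Colo205 and MDA-MB-231, and 108, 26 and 9 with DESeq2, 112, 49 and 28 without the low-count filter, and 7, 608 and 28 with the block. Without ML-792 replicate 2 it called 943 genes in Colo205. Low counts limit IRF9 in THP-1 and HCT116, IRF5 in Colo205 and IRF8 in HCT116 and MDA-MB-231.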
